A study of Homo sapiens with 4 samples.

Results

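MTF1 and the genes of 6 proteins that work with it in transcription, EP300, CREBBP, SP1, USF1, USF2 and SMARCA4, were examined for binding of MTF-1 at their own loci. The 7 genes were chosen for their known roles and not for their peaks, though with earlier results of these data known. They are 7 of the 19970 protein-coding genes in GENCODE 44. Every peak that overlapped one of these genes or the 20 kb on either side of it was taken, which gave 745518 bp of searched sequence on GRCh38. In these windows the control list held 44 of its 69299 peaks and the cadmium list 32 of its 60130.

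MDA-MB-231, an established human breast cancer cell line, was profiled for MTF-1 by CUT&RUN, in which an antibody tethers a nuclease to the bound protein and the released DNA is sequenced. Control cells were passaged in normal medium, and cadmium cells were passaged in cadmium sulfate that was raised to and then kept at 10 µM. There were 2 libraries per group, which the authors merged before calling peaks, so each group is represented by 1 peak list. The spread between libraries, the depth and the height of a peak are therefore unknown here, no difference below was tested, and each is a description of 2 lists of positions.

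MTF-1, a DNA-binding protein with zinc fingers, senses zinc and, indirectly, cadmium, and binds metal response elements in metallothionein and zinc transporter genes. EP300 and CREBBP encode p300 and CBP, a pair of related acetyltransferases that act as co-activators of many factors. SP1 encodes a zinc finger factor that binds GC boxes, and USF1 and USF2 encode basic helix-loop-helix leucine zipper factors that bind E-boxes, often as a heterodimer. SMARCA4 encodes BRG1, an ATPase of the SWI/SNF (BAF) chromatin remodelling complex.

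Of 19970 protein-coding genes, 12641 had a peak over the canonical start in both lists, and all 7 members were among them. The 250 bases before the canonical start of each member, taken from RefSeq on GRCh38.p14, lay wholly inside a peak of both lists at 7 of the 7 genes. They were searched on both strands for the core of the metal response element (TGCACNC or TGCGCNC), the GC box (GGGCGG), the E-box (CACGTG), the AP-1 site (TGACTCA or TGAGTCA) and the forkhead strings ATAAACA or GTAAACA or ATAAATA or GTAAATA. Overlapping matches were counted each. The promoters of MTF1, EP300, USF2 and SMARCA4 are shown because they contrast the gene of the factor itself, which had no metal response element core, with the 3 genes that had one. Each is written 5′ to 3′ on the strand of the gene, ends just before the start, and has cores and GC boxes in capitals. For SMARCA4 the 98 bases nearest the canonical start are left out because another transcript has them in its untranslated region.
MTF1, chr1:37859593-37859842, minus strand: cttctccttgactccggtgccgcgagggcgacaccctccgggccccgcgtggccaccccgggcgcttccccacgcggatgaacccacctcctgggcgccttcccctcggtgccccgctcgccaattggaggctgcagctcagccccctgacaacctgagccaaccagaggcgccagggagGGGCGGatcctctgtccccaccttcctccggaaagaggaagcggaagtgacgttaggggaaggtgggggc
EP300, chr22:41092342-41092591, plus strand: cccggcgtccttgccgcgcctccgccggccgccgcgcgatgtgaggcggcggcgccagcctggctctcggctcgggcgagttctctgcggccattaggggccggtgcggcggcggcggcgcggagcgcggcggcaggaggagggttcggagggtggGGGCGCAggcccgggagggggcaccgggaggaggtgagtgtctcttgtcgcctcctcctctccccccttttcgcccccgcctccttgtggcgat
USF2, chr19:35268712-35268961, plus strand: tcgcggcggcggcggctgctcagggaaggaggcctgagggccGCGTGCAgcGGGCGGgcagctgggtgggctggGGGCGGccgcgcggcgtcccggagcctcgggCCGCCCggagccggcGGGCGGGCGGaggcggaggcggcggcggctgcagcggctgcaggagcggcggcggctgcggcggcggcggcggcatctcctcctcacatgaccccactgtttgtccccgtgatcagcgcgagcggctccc
SMARCA4, chr19:10960780-10960931, plus strand: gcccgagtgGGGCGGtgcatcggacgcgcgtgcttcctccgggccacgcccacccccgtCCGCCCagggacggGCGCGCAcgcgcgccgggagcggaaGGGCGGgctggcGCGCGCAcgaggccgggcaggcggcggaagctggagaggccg

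Metal response element cores were found in 3 of the 7 promoters, against 24.8% of 35116 RefSeq promoters of this length. EP300 had 1 core, USF2 had 1, and SMARCA4 had 3, of which 2 are in the sequence shown. GC boxes, the strings bound by Sp1, were found in 6 of 7, against 42.6% of all promoters. USF2 had 5, SP1 and SMARCA4 4 each, CREBBP 3, MTF1 and USF1 1 each, and EP300 none. The members' promoters were rich in G and C, with a median of 72.4% and a range from 48.8% (USF1) to 82.4% (SMARCA4), against a median of 58% over all promoters. No E-box, AP-1 site or forkhead string lay in any of the 7, while 6.34%, 4.20% and 12.4% of all promoters held them. A match is a string in the sequence and does not show where in a broad peak MTF-1 was bound.

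MTF-1 peaks lay at the start of every member in both lists. A peak with at least 1 base within 1 kb of an annotated start of the gene was present at 7 of 7 members in the control list and at 7 of 7 in the cadmium list, where 70.2% of protein-coding genes had one in both (73.4% in control, 71.7% in cadmium). Both lists also held peaks elsewhere in the windows, fewer in cadmium. Among the 44 control peaks 12 had no base in common with the cadmium list and are called lost, which is 27.3% (95% Wilson interval 16.3 to 41.8%) and close to the 27.9% of the whole control list. Lost peaks were found at 5 of the 7 members, EP300 and USF2 being without, where 46.1% of protein-coding genes had one. The members' windows were longer, with a median of 90019 bp against 67476.5 bp over all protein-coding genes. Their median of control peaks per 100 kb was 6.42 against 4.29, so shares per gene were not like for like. No member had a gained peak, where 31.2% of genes did. None of the 32 cadmium peaks was gained, that is, free of any control peak, where 15.1% of the whole cadmium list was. A count of 0 in 32 allows a share of up to 9.38% (3 counts of 32), the 95% Wilson upper limit is 10.7%, and intervals and this limit cover counting error only, since peaks of the same locus are not independent.

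The bases covered by peaks fell short in cadmium at most members. Together the windows had 92064 bp in control peaks and 58807 bp in cadmium peaks, a ratio of 63.9%, beside 69.7% for the whole lists, which covered 130.4 and 90.9 Mb. Fewer bases were covered in cadmium at 6 members, an equal number at USF2, and more at none in these windows, and 73.4% of the 18115 protein-coding genes with any peak had fewer while 23.8% had more. In the gene bodies alone, without the flanks, EP300 (124.8%) and USF2 (138.5%) had more bases in cadmium. The median ratio over the 7 members was 67.8%, and that over all protein-coding genes 75% (quartiles 55.5 and 100%). USF1 (39.5%) and SP1 (43.6%) lay below the lower quartile. The whole cadmium list is smaller than the control list, and the part of that difference in the members' values was not tested. Lost peaks held 20.2% of the members' control bases (18.8% for the whole list), and the remaining shortfall came from sites kept in narrower form.

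**Figure D1:**
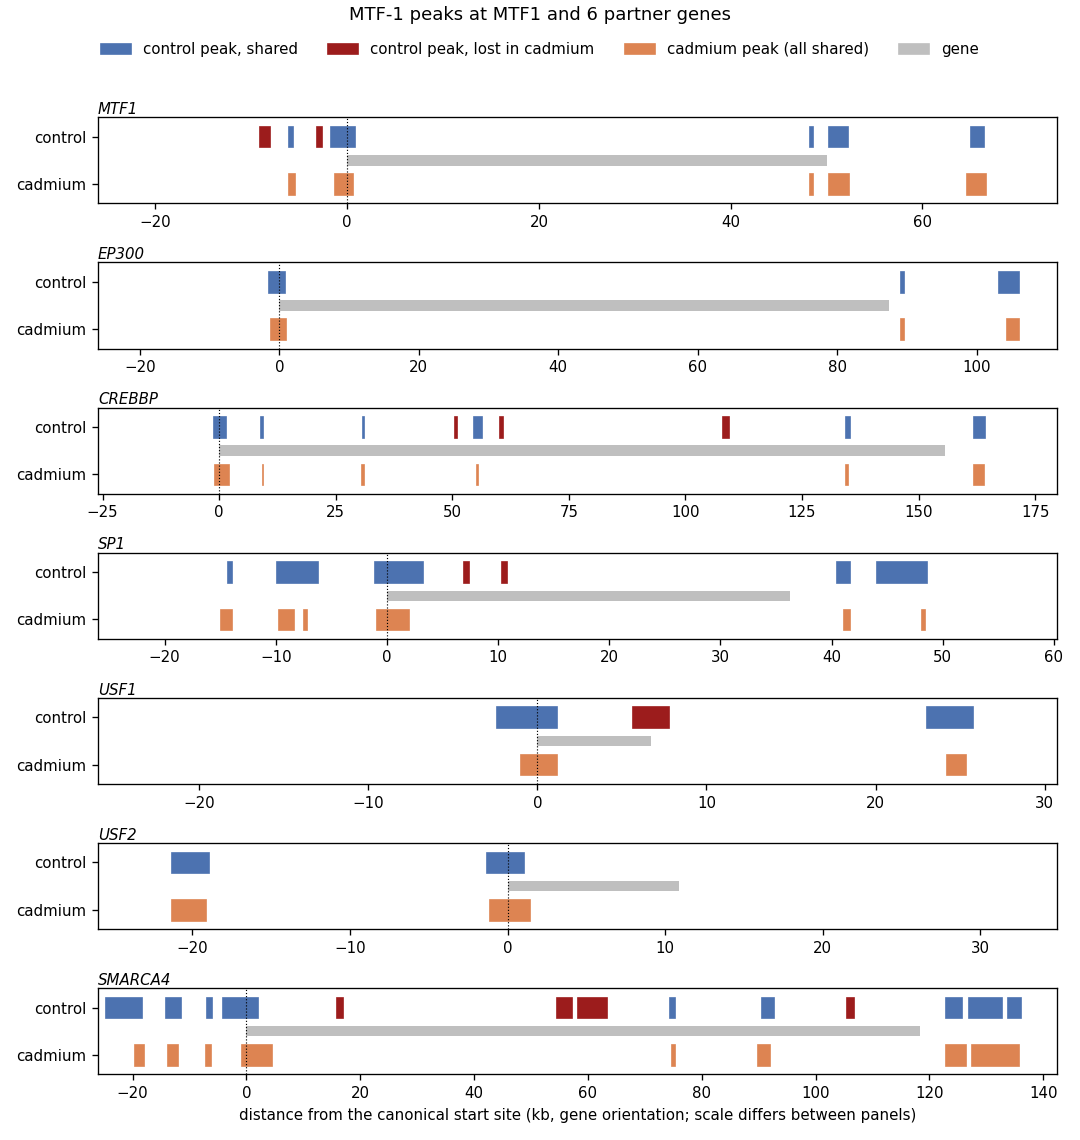
Peaks of the control and cadmium lists at the 7 genes, plotted by distance from the canonical start in kb in the direction of transcription, with the gene drawn as a bar and lost control peaks in their own colour. All 7 canonical starts lie under a peak of both lists, as do those of 12641 of 19970 protein-coding genes. Because a lost peak shares no base with a cadmium peak, none of the 12 can cover the canonical start of its member. Of the 12 lost peaks 4 are in SMARCA4.

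At the gene of MTF-1 itself 2 of the 7 control peaks were lost, where 27.9% of the whole control list was. MTF1 (chr1:37809574-37859592, minus strand) had 7 control peaks over 8793 bp and 5 cadmium peaks over 7395 bp, a ratio of 84.1%. The peak over its start was the widest control peak at the locus, at 2599 bp (chr1:37858801-37861399), and narrowed to 1999 bp (chr1:37859001-37860999) in cadmium. That peak also overlaps an exon of INPP5B, which is the neighbouring gene and encodes an inositol polyphosphate phosphatase. Inside MTF1 the only other peak was one of 399 bp in exon and UTR sequence near the 3′ end, at the same position in both lists, so the 47.4 kb between it and the start peak were free of control peaks (47.6 kb in cadmium). The 2 lost peaks lay upstream of MTF1 and within INPP5B, at chr1:37862201-37862799 (599 bp, exonic, with a base in a UTR) and chr1:37867601-37868799 (1199 bp, exonic). The closest cadmium peaks were 1201 and 1801 bp away, and between the lost pair a peak was present in both lists, of 599 bp in control and 799 bp in cadmium. On the other flank the peak at the start of YRDC, of a tRNA-modifying enzyme, was the widest of the cadmium list at the locus, at 2199 bp against 1999 bp in control. The peak at the start of MANEAL was also longer in cadmium, at 1999 bp against 1399 bp.

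The paralogs EP300 and CREBBP differed in how many peaks they carried. EP300 (chr22:41092592-41180077, plus strand) had 3 peaks in each list and none was lost or gained, with 5997 bp in control and 4797 bp in cadmium (80.0%). Its start peak was 2399 bp wide in both lists and sat 200 bp farther downstream in cadmium (chr22:41091201-41093599 against chr22:41091001-41093399). No other peak lay in the gene, which left 88.2 kb without a peak in control and 88.0 kb in cadmium. The peaks downstream of EP300 were one of 599 bp at the same position in both lists and one at the start of the antisense RNA EP300-AS1, of 2999 bp in control and 1799 bp in cadmium. The latter accounts for the whole difference between the lists at EP300.

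CREBBP (chr16:3725054-3880713, minus strand) had 9 control peaks over 12191 bp and 6 cadmium peaks over 7594 bp, a ratio of 62.3%. Within the gene 8 control peaks and 5 cadmium peaks were found, against 1 and 1 in EP300. The lost peaks were 3 intronic sites at chr16:3771401-3772799 (1399 bp), chr16:3819801-3820599 (799 bp) and chr16:3829801-3830399 (599 bp), the first of them 25001 bp from any cadmium peak. A further intronic site between the last 2, at chr16:3824401-3826199, went from 1799 bp to 399 bp. With the first 2 sites gone, the longest stretch without a peak was 78.8 kb in cadmium and 47.0 kb in control. The start peak was the widest of both lists and was longer in cadmium, at 3199 bp (chr16:3878601-3881799) against 2799 bp (chr16:3879201-3881999). The peak at the start of TRAP1, a mitochondrial chaperone gene downstream, was 2599 bp in control and 2399 bp in cadmium.

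SP1 and USF1 had the lowest ratios of the 7 in the 20-kb windows. In the gene bodies alone SMARCA4 (47.1%) and CREBBP (49.5%) were below USF1 (50.6%), and with 50 kb on either side USF1 was at 79.6%, above CREBBP (60.3%), SMARCA4 (75.5%) and EP300 (77.3%). SP1 was the lowest of the 7 in both of these, at 45.8% and 44.9%. SP1 (chr12:53380176-53416446, plus strand) had 7 control peaks over 15593 bp and 6 cadmium peaks over 6794 bp, a ratio of 43.6%. Its lost peaks were 2 intronic sites of 599 bp each, at chr12:53387001-53387599 and chr12:53390401-53390999, and they held only 7.68% of the control bases. The rest of the difference came from sites that stayed and were narrower. The start peak went from 4399 bp (chr12:53379001-53383399) to 2999 bp (chr12:53379201-53382199). An intergenic control peak of 3799 bp upstream (chr12:53370201-53373999) was met in cadmium by 2 peaks of 1399 and 399 bp. The widest control peak lay downstream at AMHR2, the anti-Müllerian hormone receptor gene (chr12:53424201-53428799, 4599 bp), and only 399 bp of it were covered in cadmium. Inside the gene the cadmium list had no peak beyond the one at its start.

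USF1 (chr1:161039251-161045977, minus strand), the shortest of the 7 genes, had 3 control peaks over 8597 bp and 2 cadmium peaks over 3398 bp, a ratio of 39.5%. The lost peak, of 2199 bp at chr1:161038201-161040399, overlapped exons and UTR sequence at the 3′ end of USF1 and of TSTD1, whose start is the closest, 322 bp from the centre of the peak. The start peak went from 3599 bp (chr1:161044801-161048399) to 2199 bp (chr1:161044801-161046999), with all of the difference on the upstream side, toward ARHGAP30. The peak at the start of F11R, a tight junction protein gene, was 2799 bp in control and 1199 bp in cadmium. All 3 USF1 sites therefore had less coverage in cadmium.

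USF2 (chr19:35268962-35279821, plus strand) had 2 peaks in each list, over 3437 bp in both. The start peak was 2399 bp wide in control (chr19:35267601-35269999) and 2599 bp in cadmium (chr19:35267801-35270399). The other peak, at the start of LSR was 2399 bp in control and 2199 bp in cadmium, and the window takes in only 1038 and 838 bp of it. The equal totals thus rest on differences of 200 bp, the bin of the peak caller, in opposite directions. The USF1 and USF2 loci, whose products dimerize, had ratios of 39.5% and 100%, against 50.6% and 138.5% in the gene bodies alone and 79.6% and 85.1% with 50 kb on either side.

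SMARCA4 (chr19:10960932-11079426, plus strand) carried the most peaks, 13 in control over 37456 bp and 8 in cadmium over 25392 bp, a ratio of 67.8%. It held 40.7% of the control bases of all 7 windows and 36.3% of the difference between the lists. At SMARCA4 4 peaks were lost, more than at any other member, and they held 28.3% of its control bases. The widest lost peak of the set, 5199 bp at chr19:11019201-11024399, had its centre 52 bp from an alternative start of SMARCA4 and overlapped exons. Next to it, an intronic peak of 2799 bp (chr19:11015401-11018199) that overlaps an exon of the noncoding RNA ENSG00000266936 was also lost. The others were a peak of 1199 bp with exon and UTR sequence (chr19:10976801-10977999) and an intronic peak of 1399 bp (chr19:11066401-11067799). The longest stretch of the window without a peak was 37.4 kb in control and 70.0 kb in cadmium. The start peak was 6199 bp in control (chr19:10956801-10962999) and 5599 bp in cadmium (chr19:10960001-10965599), with a shared core of 2999 bp, so it extended upstream in control and into the gene in cadmium. The widest control peak of the window was an intergenic one of 6399 bp at chr19:10936201-10942599, partly outside the window.

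**Figure D2:**
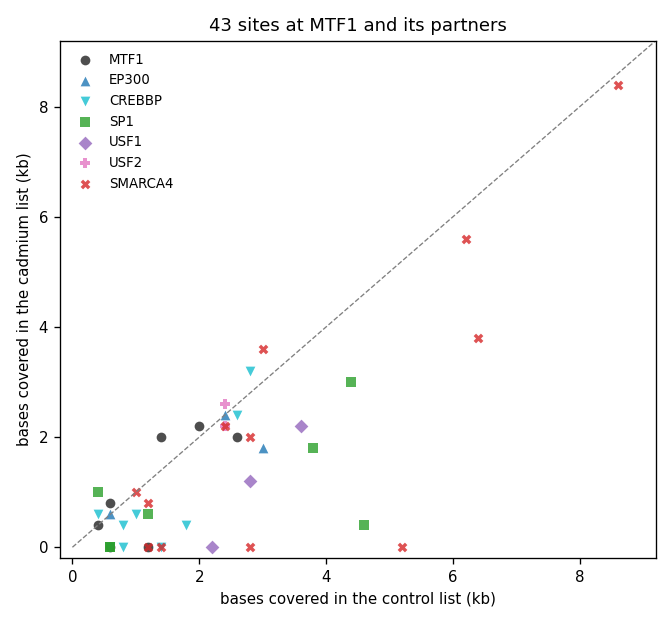
Kilobases under control peaks (x axis) against kilobases under cadmium peaks (y axis) at the 43 sites of the 7 loci, 1 symbol per site and a symbol shape per gene, some of which coincide, with a dashed line for equal coverage. Of the 31 sites present in both lists, 19 lie under the line, 8 above it and 4 on it, and the 12 lost sites lie at 0 on the y axis.

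Over the 7 loci, overlapping peaks of the lists formed 31 conserved sites. Of these, 19 were covered over more bases in control, 8 over more in cadmium and 4 equally, and over all 48627 conserved sites the shares were 58.0%, 23.7% and 18.3%. How the difference fell along the loci depended on how a start was defined. Peaks over the canonical starts held 24393 bp in control and 20993 bp in cadmium, a ratio of 86.1% (80.5% for all protein-coding genes), while all other member peaks had 67671 and 37814 bp, a ratio of 55.9% (65.1% for the rest of the lists). Counting instead every peak within 1 kb of any annotated start of the member, alternative starts included, 14 control and 10 cadmium peaks held 38586 and 22990 bp, a ratio of 59.6%, and the remaining 30 and 22 peaks had a ratio of 67.0%. By that definition 4 of the 12 lost peaks were at a start. Peaks that overlapped a member gene numbered 24 in control and 14 in cadmium, and peaks in the flanks 20 and 18. Of the 12 lost peaks 10 overlapped the member gene. None could cover the canonical start of its member, because all 7 of these starts lie under a cadmium peak. The share of all lost peaks that overlap a gene was not counted, nor was the split into gene and flank over all genes. The centres of 3 lost peaks lay within 1 kb of any annotated start, where 11% of all lost peaks did. One was at TSTD1 in the USF1 window and the others were in SMARCA4, which has 47 annotated starts. Of those in SMARCA4, one was 52 bp from a SMARCA4 start. The other was 788 bp from a start of the noncoding RNA ENSG00000266936 and 1512 bp from the closest SMARCA4 start. The 12 lost peaks had a median width of 1199 bp (599 to 5199 bp), against 2399 bp for the members' control peaks that were kept. Over the whole control list these medians were 999 bp for lost and 1599 bp for kept peaks. The distance of the 12 lost peaks to the closest cadmium peak had a median of 6501 bp and a range of 1201 to 25001 bp. Over all lost peaks the median was 10401 bp.

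**Figure D3:**
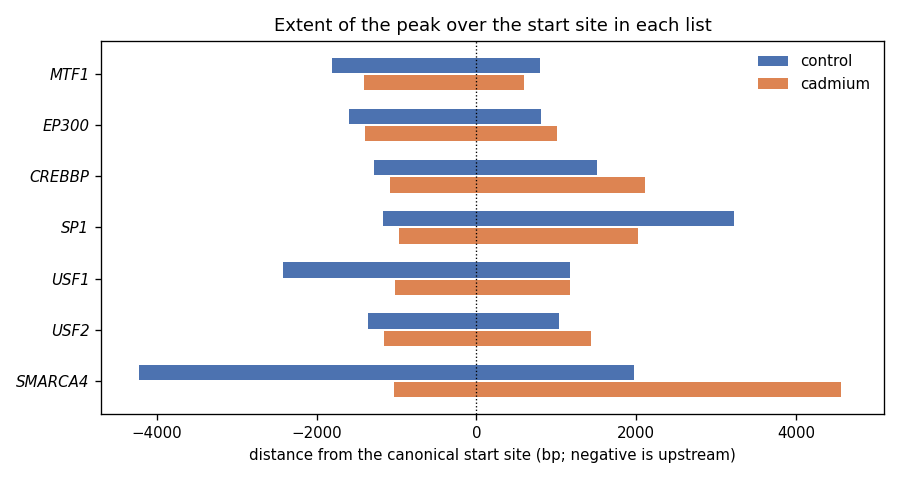
How far the peak over the canonical start of each member extended, in bp upstream (negative) and downstream (positive), for the control and the cadmium list. The upstream end is closer to the start in cadmium at 7 of 7 members, and the downstream end is farther out at 4.

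The start peaks moved in position as well as width. Upstream of the canonical start, MTF1's peak reached 1807 bp in control and 1407 bp in cadmium, EP300's 1591 and 1391 bp, CREBBP's 1286 and 1086 bp, SP1's 1175 and 975 bp, USF1's 2422 and 1022 bp, USF2's 1361 and 1161 bp, and SMARCA4's 4229 and 1029 bp. The upstream end was thus closer to the start in cadmium at 7 of 7 members, while 47.2% of 12641 protein-coding genes with such a peak in both lists had it closer and 22.7% farther. At 4 of the members the difference was exactly 1 bin of 200 bp, the smallest step the peak caller can give, and at MTF1, USF1 and SMARCA4 it was more. Downstream the members were mixed. The cadmium peak reached farther into the gene at EP300 (807 to 1007 bp), CREBBP (1512 to 2112 bp), USF2 (1037 to 1437 bp) and SMARCA4 (1969 to 4569 bp), less far at MTF1 (791 to 591 bp) and SP1 (3223 to 2023 bp), and equally far at USF1 (1176 bp). Over all such genes 23.3% reached farther downstream in cadmium and 50.3% less far, with a median shift of -200 bp. The pattern was noticed in these values, and with 1 list per group it has no replicate check.

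The shape of the start region was compared between MTF1 and the other genes by the share of covered 200-bp bins in common (Jaccard index), over 5 kb on either side of the start and both lists. The most similar among the members and the 32 other genes listed below were SMARCE1, a BAF subunit (0.788), EP300 (0.786) and SMARCC2, another BAF subunit (0.703). The median over 19969 protein-coding genes was 0.342, and 488 of them reached the value of SMARCC2 or more. Between pairs of members the index ranged from 0.361 for EP300 and SMARCA4 to 0.815 for EP300 and USF2.

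Sequence at the lost sites was searched in the 500 bp around each centre. A metal response element core was present in 7 of 12 lost peaks (58.3%), where 28.8% of all lost peaks had one, and in 16 of the 32 control peaks that were kept (50%), where 36.5% of all kept peaks had one. AP-1 sites lay in 4 of 12 lost member peaks (33.3%, 24.5% of all lost peaks) and forkhead strings in 6 of 12 (50%, 41.1% of all lost peaks). Of the 32 kept member peaks 11 held AP-1 sites (34.4%, 24.5% of all kept peaks). Forkhead strings lay in 10 of the 32 (31.25%, 26.4% of all kept peaks). In the 500 bp around the centre, no E-box was found in any of the 44 control peaks (7.68% of the whole list). Farther from the centre some of these peaks did hold E-boxes, among them the 5199-bp lost peak of SMARCA4, with 4. Of the 32 cadmium peaks 2 had an E-box in the 500 bp around the centre (6.25%, 8.45% of the whole cadmium list). The 12 lost peaks gave 15 core and AP-1 matches, in 8 of them, and 6 lay within 100 bp of the centre of the peak. At each of these 6, at least 1 of the 20-base flanks occurred exactly, on either strand, at 217 or more places in hg38, and over all 15 matches 5 had both flanks at a single place. How reads from repeated sequence were placed, and its part in the peaks, was not tested. Of these 5, the AP-1 site and 2 cores lay in an exon under the 5199-bp lost peak of SMARCA4. The others are shown with 20 bases on either side, because they lie in introns and their flanks occur nowhere else, on the plus strand of hg38 and with the match in capitals. A core on the minus strand appears as its reverse complement.
CREBBP intron, core, chr16:3820370-3820376: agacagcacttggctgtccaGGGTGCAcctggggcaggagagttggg
SMARCA4 intron, core, chr19:10977211-10977217: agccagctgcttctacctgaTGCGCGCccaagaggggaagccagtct

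The other genes of the pathway gave a background for the members. All 32 listed genes had a start peak in both lists. Of their 216 control peaks 55 were lost (25.5%), and 21 of 190 cadmium peaks were gained (11.1%), while the members had 12 of 44 and 0 of 32. The covered bases were fewer in cadmium at 25 genes and more at 7, with a ratio of 70.2% in all and a median of 72.1%. Among 12 BAF subunits 20.2% of the control peaks were lost and the ratio was 77.2%. Among 6 acetyltransferases and co-activators the values were 22.6% and 72.3%, and among 7 Sp and leucine zipper relatives 26.3% and 65.8%. Among 7 genes tied to MTF-1 activation, such as kinases that act on it, 35.8% were lost and the ratio was 62.1%, with fewer bases in cadmium at 7 of the 7. The highest ratio was that of ACTL6A, an actin-related BAF subunit (133%), and the lowest that of CSNK2B, the regulatory subunit of casein kinase 2 (42.5%). The members' ratios, from 39.5 to 100%, thus reached slightly below the lowest of the listed genes, at USF1, in the 20-kb windows.

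**Figure D4:**
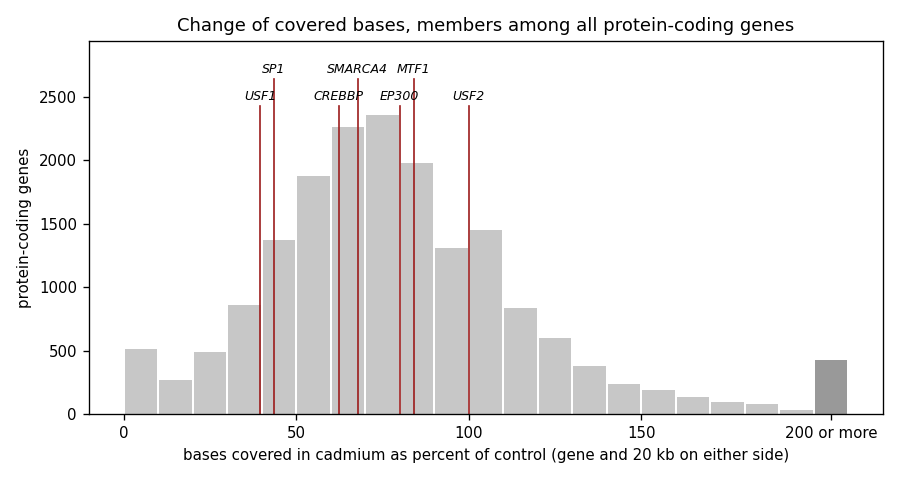
Distribution of the cadmium-to-control ratio of covered bases, in percent, over protein-coding genes with any control coverage, with the 7 members marked. The members run from 39.5% (USF1) to 100% (USF2), with their median of 67.8% near the gene median of 75%.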

How the data were processed

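The authors made 2 control and 2 cadmium CUT&RUN libraries, mapped them to hg38 (Bowtie2), pooled those of each group and, per the methods, called peaks with Epic2. The labels' processing notes list SICER 0.0.50, SAMtools 1.8 and deepTools. The deposited lists hold positions in bp and a constant column that was not used, with no count, signal or score. Starts of peaks are multiples of 200 bp, and peaks of a list are at least 801 bp apart, so closer signal was joined. No depth is given.

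Deposited starts count from 0 and are printed counting from 1. Peaks were taken for each gene and 20 kb on either side (GENCODE 44), and were shared when at least 1 base was in common. Width is the number of bases from start to end. Python 3.11.15, numpy 2.4.6 and scipy 1.17.1 were used. Overlap and coverage were tested on simulated data. Promoters came from RefSeq (GRCh38.p14), where 7 of 7 members were matched. The members and lists were chosen with earlier results of these data known. The named items were all members and, in each window, the start peaks, the widest peak of each list and every peak unique to a list, apart from 1 widest peak that is not reported here. Of the other pathway genes, those with the highest and lowest ratio, any without a start peak, and the 3 most like MTF1 in start region were named. Other peaks named were chosen after their values were seen. Other windows, width minimums, an overlap of at least 50% and the set without SMARCA4 were the alternatives.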

Additional observations from a re-analysis of the deposited data

How the results depend on the processing

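No paired analysis was possible because the libraries of each group were merged before peaks were called and the lists carry no replicate numbers, and for the same reason no replicate could be left out. Of 85 alternative values of the summed results, 65 stayed close to the reported value and 20 moved, 8 of them with a changed window, 5 under the closest-start rule and the others under the overlap rule, width minimums or the set without SMARCA4. Close meant within 1.5-fold of the reported value, or inside its 95% Wilson interval for shares of peaks. A count of 0 was close only to 0. The 44 control and 32 cadmium peaks became 24 and 14 in the gene body alone, 68 and 59 with 50 kb on either side, and 22 and 17 when the closest start had to belong to the member, and 19 cadmium peaks were left at a minimum of 1000 bp. Lost peaks numbered 7 when the closest start had to belong to the member and 19 when sharing required 50% coverage, which made the share lost 43.2% (46.2% of the whole list). Gained peaks, 0 as reported, numbered 4 with 50 kb on either side, 2 among peaks of at least 400 bp and 1 under the 50% rule, so the absence of gained peaks depends on these choices. Covered bases in control and cadmium were 34353 and 18413 in the gene body, 45178 and 29383 for the closest-start rule, and 54608 and 33415 without SMARCA4, an alternative chosen after seeing the data, and cadmium bases were 94568 with 50 kb on either side. The ratio of covered bases stayed between 53.6 and 70.1%. For single members, 52 of 54 values stayed within 1.5-fold, among them USF2, equal as reported and at 138.5% in the gene body alone. EP300 reversed to 124.8% in the gene body alone, and USF1 moved to 79.6% with 50 kb on either side.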
